A study of Mus musculus with 6 samples.

Results

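The genes described here encode the receptors of the colony-stimulating factors and macrophage colony-stimulating factor itself. They are Csf1, Csf1r, Csf3r, Csf2rb, Csf2rb2, Csf2ra and Il3ra, 7 of the 45706 Ensembl mouse genes in the deposited counts, chosen by symbol. All 7 had enough counts to be among the 15141 genes tested. RNA-seq was done on mouse bone marrow kept in medium taken from VpR clear cell renal cell carcinoma (ccRCC) cultures (4 libraries, from the lines VpR83, VpR99, VpR126 and VpR2020) and in control medium (2 libraries). With 1 library per line, differences between lines cannot be told apart from differences between cultures. The marrow's strain, age, genotype, time in culture and any added growth factor were not given in the sources used. Sample labels name control medium for the 2 control libraries, whereas the design text of the series names fresh marrow, so the medium and time spent in culture cannot be told apart. Column names also hold the tags Ctrl (VpR83), T1 (VpR99) and LT2 (VpR126), whose meaning the labels do not give, and the control columns are named for bone marrow with no medium, as in the design text.

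CSF1R is a receptor tyrosine kinase that binds CSF1 and interleukin 34 and keeps monocytes and macrophages alive and dividing. CSF3R binds granulocyte colony-stimulating factor as a homodimer and drives the production of neutrophils in the marrow. The receptors of GM-CSF, interleukin 3 and interleukin 5 each pair a ligand-binding alpha chain (Csf2ra, Il3ra and Il5ra) with the common beta chain Csf2rb, which carries the signal through JAK2 and STAT5. Mice have an additional beta chain, Csf2rb2, which serves interleukin 3 alone.

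Csf2rb and Csf2rb2 lie beside each other on chromosome 15 (chr15:78325752-78353847, plus strand, and chr15:78282507-78305721, minus strand, GRCm38) and are near-identical copies. Their longest annotated coding sequences, of 2688 and 2634 bases in GENCODE M21, aligned over 2626 bases with 95.4% identity. The longest identical run, 242 bases, is shown because a read inside it fits both genes. It spans positions 2083 to 2324 of both coding sequences.
Csf2rb and Csf2rb2: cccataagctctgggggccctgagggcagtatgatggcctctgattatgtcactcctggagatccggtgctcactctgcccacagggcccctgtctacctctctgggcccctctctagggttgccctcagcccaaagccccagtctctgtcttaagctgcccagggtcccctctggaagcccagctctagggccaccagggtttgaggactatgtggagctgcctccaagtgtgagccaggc
The gapless stretch of 60 bases with the most differences (13) is shown because a read across it can be assigned. It starts at position 304 of the Csf2rb and position 307 of the Csf2rb2 coding sequence, and capitals mark the bases that differ.
Csf2rb: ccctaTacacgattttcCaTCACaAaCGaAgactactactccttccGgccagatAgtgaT
Csf2rb2: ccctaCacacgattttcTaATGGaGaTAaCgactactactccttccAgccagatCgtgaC
Of all distinct windows of 100 bases in the annotated transcripts, 4.63% of those of Csf2rb and 6.82% of those of Csf2rb2 occur in both genes, and at 50 bases the shares were 12.3% and 18.4%. With read length and the handling of such reads unknown, the split of counts between these copies is uncertain.

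Of the promoters searched, the 3 with a match to the core of the PU.1 motif are shown, all of receptor genes. They are shown because PU.1 is a known regulator of myeloid receptor genes and because Csf3r and Csf2rb2 differed in direction below. Csf2ra was not called in either direction. Promoters of 5 of the 7 genes were searched, matched by symbol to RefSeq (GRCm38.p6). Those of Csf1r and Csf2rb were not searched, so whether they hold a match is not known here. The letters searched on both strands of the 250 bases before the RefSeq start were GAGGAA (PU.1 core), TTGCNNAA (C/EBP) and TGANTCA (AP-1), each counted on its own. By the GENCODE M21 coordinates given below, the windows of Csf3r, Il3ra and Csf2ra reach into the gene. The matches of Csf3r and Il3ra and the second match of Csf2ra lie inside the gene by those coordinates. Capitals mark GAGGAA or its reverse complement TTCCTC.
Csf3r, chr4:126024409-126024658, plus strand: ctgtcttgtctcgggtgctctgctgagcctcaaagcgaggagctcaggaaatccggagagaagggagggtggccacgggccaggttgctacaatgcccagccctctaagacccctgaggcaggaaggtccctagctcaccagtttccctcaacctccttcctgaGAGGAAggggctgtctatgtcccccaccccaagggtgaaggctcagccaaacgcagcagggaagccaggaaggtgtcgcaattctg
Csf2rb2, chr15:78305722-78305971, minus strand: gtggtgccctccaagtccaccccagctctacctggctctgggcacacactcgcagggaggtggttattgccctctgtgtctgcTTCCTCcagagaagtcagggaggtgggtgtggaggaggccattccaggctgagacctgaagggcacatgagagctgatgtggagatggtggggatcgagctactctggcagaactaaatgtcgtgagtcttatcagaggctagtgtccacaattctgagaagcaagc
Csf2ra, chr19:61228419-61228668, minus strand: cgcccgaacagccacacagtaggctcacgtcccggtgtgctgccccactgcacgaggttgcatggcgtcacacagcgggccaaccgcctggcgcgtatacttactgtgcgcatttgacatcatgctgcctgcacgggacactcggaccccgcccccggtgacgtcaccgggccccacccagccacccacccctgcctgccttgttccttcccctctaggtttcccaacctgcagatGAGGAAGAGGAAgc
Csf3r and Csf2rb2 held 1 match each and Csf2ra 2, side by side. GAGGAA occurred in 23.3% of all 32851 promoter windows of this length. Il3ra held 1 C/EBP match, a motif found in 9.56% of windows, and no window of the 5 held the AP-1 letters, found in 6.75%. A match describes the letters and shows no binding.

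Library totals ranged from 18629708 to 28055913 counts in 5 libraries and reached 129120559 in VpR99. Values are CPM, each count relative to a library total scaled by the TMM method of edgeR, and log2 fold changes are conditioned over control medium with an SE derived from the test statistic. The make-up of the libraries differed along with the medium. The summed level of 10 macrophage markers was 4802 to 10829 CPM in conditioned medium and 313 to 338 CPM in control medium. Of these, 8 of 10 were called higher, and Cd163 and Vsig4 were not called. Among all tested genes 22.5% were called higher and 19.7% lower. The summed level of 8 monocyte markers was 1268 to 3437 CPM in conditioned medium and 1986 to 2371 CPM in control medium. Of these, 0 were called higher and 2 lower, Nr4a1 and Ace, with a median log2 fold change of -1.26. The summed level of 11 late neutrophil markers was 3321 to 16977 CPM in conditioned medium and 85321 to 92352 CPM in control medium, with 9 of 11 called lower. Their median log2 fold change was -3.51, and -3.43 and -3.58 without control replicate 1 and 2. Erythroid markers summed to 0.13 to 0.28 CPM in conditioned medium, with Slc4a1, Car1 and Rhag at 0 counts in all 4 libraries, and to 857 to 1333 CPM in control medium. Markers of lymphoid cells summed to 30.8 to 227 CPM and to 713 to 882 CPM in control medium. In bulk RNA, fewer cells of a type and less RNA per cell cannot be told apart, and the part of these shifts in the results below was not tested.

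The receptor genes changed in both directions. Csf1r and both beta chain genes rose under conditioned medium, Csf3r fell, and the alpha chain genes Csf2ra and Il3ra and the ligand gene Csf1 did not pass the test. Of the 7 genes 3 were called higher and 1 lower by edgeR's quasi-likelihood test at an adjusted p below 0.05, where 22.5% of all tested genes were called higher and 19.7% lower. All 4 conditioned libraries lay above both controls for the 3 higher genes and below both for Csf3r, and 32.0% and 33.3% of all tested genes separated in these ways. Leaving out a control replicate left a single control, and calls then fell among all tested genes as well as among these 7. Without control replicate 1 and 2 the log2 fold changes were 3.91 and 3.96 (Csf1r), 2.32 and 2.43 (Csf2rb), 3.74 and 3.81 (Csf2rb2), and -0.97 and -0.74 (Csf3r).

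**Figure D1:**
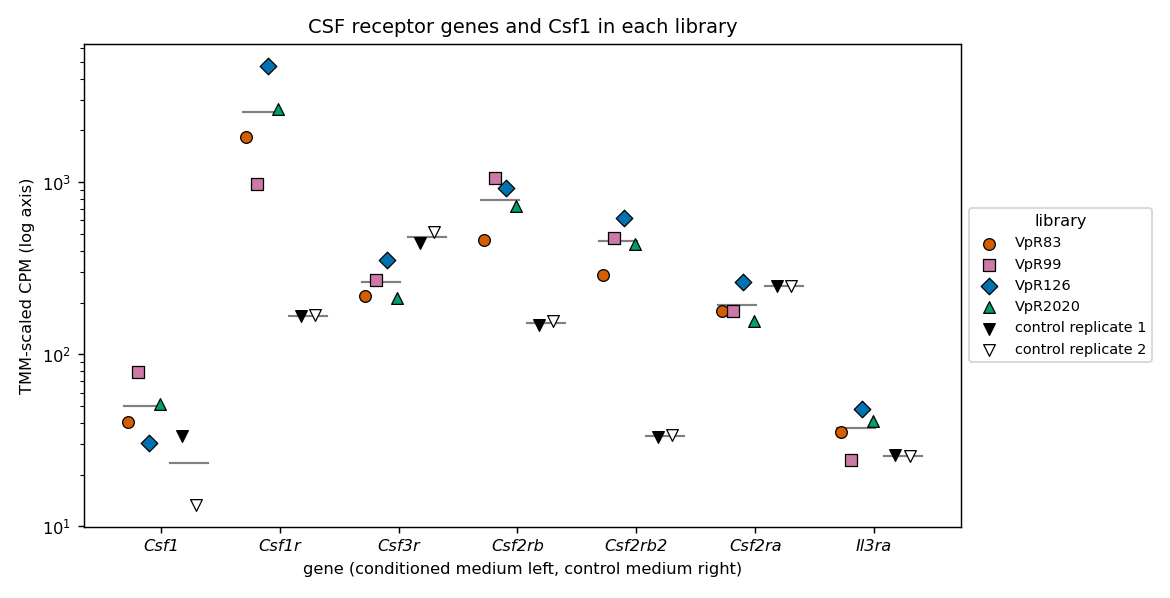
TMM-scaled CPM on a log axis for the 7 genes, 1 point per library, with the 4 conditioned libraries left of the 2 controls and grey lines at the group means. Csf1r, Csf2rb and Csf2rb2 lie above both controls in all 4 conditioned libraries, Csf3r lies below both, and Csf1, Csf2ra and Il3ra overlap.

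Among the ligands, Csf1 was the only gene with more than trace counts. Csf1 (chromosome 3, 107741048 to 107760469, minus strand) had 40.2 (VpR83), 78.8 (VpR99), 30.5 (VpR126) and 51.4 CPM (VpR2020) in conditioned medium, against 33.5 and 13.3 CPM in control replicates 1 and 2. The groups overlapped, since VpR126 lay below control replicate 1. The log2 fold change was 1.10 ± 0.51 (edgeR adjusted p = 0.122), and it was 1.91 without control replicate 1 and 0.61 without control replicate 2, neither of them called. The controls differed 2.51-fold in Csf1. They also differed in Nr4a1, a gene induced rapidly by stimuli, with 498 CPM in replicate 1 and 53.9 CPM in replicate 2, and in Klf4, with 177 and 60.3 CPM. Whether the state of control replicate 1 has a part in its Csf1 level was not tested.

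The other ligand genes were near the limit of detection, and none had enough counts to be tested. Without the low-count filter, Il34 alone of these 5 was called lower. Csf2, the GM-CSF gene, had 2 counts over the 4 conditioned libraries, both in VpR99, and 1 count in each control. Csf3, the gene of granulocyte colony-stimulating factor, had 1, 10, 2 and 0 counts in VpR83, VpR99, VpR126 and VpR2020, and 0 and 1 in the controls. Il34, the alternative ligand of CSF1R, had 1 count in VpR83 and 1 in VpR99, against 5 and 3 in the controls. Il3 had 0 counts in all 6 libraries, and Il5 had 1 in VpR83 and 2 in VpR99. Counts of 0 limit a level to 3 counts, or 0.0243 CPM in VpR99 and 0.166 CPM in VpR2020, for counting error only.

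Epithelial markers, taken as possible marks of tumour cells, summed to 3.54 to 17.96 CPM in conditioned medium and 18.8 to 21.4 CPM in control medium. Most of each sum was Cdh1, with 3.15 to 17.3 CPM in conditioned medium and 16.7 and 13.3 CPM in the controls. All 6 libraries were of marrow, so whether the VpR lines express these genes could not be checked. Krt8, Krt19 and Pax2 had 0 counts in all 4 conditioned libraries. Their counts in control replicates 1 and 2 were also few, 2 and 5 (Krt8), 0 and 0 (Krt19) and 1 and 0 (Pax2). Stromal and endothelial markers, of cells that make CSF1 in marrow, summed to 102 to 190.4 CPM in conditioned medium and 126 to 143 CPM in control medium. Of these 10 genes 6 were called lower and 2 higher, Kdr and Vwf, and without either control 4 were lower and 0 higher. Vwf made up 35.9 to 169 CPM of the sums in conditioned medium and 9.83 and 10.01 CPM in control medium, whereas Cxcl12, a chemokine gene of marrow stroma, had 0.097 to 0.42 CPM in conditioned medium, against 19.6 and 25.6 CPM in control medium. The part of either list in the Csf1 level was not tested.

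Csf1r rose, and it spread more between lines than the other 6 genes. Csf1r (chromosome 18, 61100598 to 61132149, plus strand) had 1835 (VpR83), 982 (VpR99), 4742 (VpR126) and 2656 CPM (VpR2020), against 166 and 169 CPM in the controls. VpR99 lay 5.86-fold above the geometric mean of the controls and VpR126 28.3-fold, and the groups did not overlap. The log2 fold change was 3.93 ± 0.71 (edgeR quasi-likelihood, adjusted p = 0.00701). The call was lost without control replicate 1 (3.91, adjusted p = 0.0666) or control replicate 2 (3.96, adjusted p = 0.0638), with adjusted p-values from 2.4e-10 to 0.0666 over all alternatives. Hmgxb3, a protein-coding gene, overlaps exons of Csf1r on the opposite strand, and with the strand setting of the counting unknown its reads cannot be told apart from those of Csf1r there. Its own counts were 539 to 4063 in conditioned medium and 487 and 394 in control medium, against 48007 to 121114 and 4978 and 3601 for Csf1r.

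VpR126 held 4.83 times the Csf1r level of VpR99, and the SD of log2 CPM over the 4 lines was 0.95. That SD was larger than in 87.4% of the 14569 tested genes with counts in all lines, whose median was 0.35. For Csf1, Csf2rb, Csf2rb2, Il3ra, Csf3r and Csf2ra the SD was 0.58, 0.53, 0.45, 0.42, 0.33 and 0.32. VpR99, lowest in Csf1r, was highest in Csf1 and Csf2rb, and VpR126, highest in Csf1r, was lowest of the lines in Csf1. The summed macrophage markers followed the order VpR126, VpR2020, VpR83 and VpR99 (10829, 9808, 8048 and 4802 CPM), the same order as Csf1r. Adgre1, Mertk, C1qa, C1qb and C1qc each had this order too, whereas Mrc1, Cd68, Trem2, Cd163 and Vsig4 did not. Mrc1 was lowest in VpR126. Of the 10 macrophage markers 7 had a log2 fold change above the 3.93 of Csf1r and 3 below it, with a median of 4.62. The part of these markers in the Csf1r level was not tested.

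Csf3r fell. Csf3r (chromosome 4, 126024550 to 126044440, plus strand) had 219 (VpR83), 272 (VpR99), 351 (VpR126) and 213 CPM (VpR2020), against 445 and 516 CPM in the controls. The groups did not overlap. The log2 fold change was -0.86 ± 0.24 (edgeR adjusted p = 0.0260). It was not called without control replicate 1 (-0.97, adjusted p = 0.0955), control replicate 2 (-0.74, adjusted p = 0.168), VpR83 (-0.78, adjusted p = 0.0602) or VpR2020 (-0.76, adjusted p = 0.0591), with a range of 0.00629 to 0.168 over all alternatives. Of 11 late neutrophil markers 9 had a log2 fold change below that of Csf3r, with a median of -3.51, and so did all 5 neutrophil precursor markers tested, with a median of -1.64. Of these 5, 1 was called lower, but without VpR99 all 5 were, with a median of -3.28. In VpR99 Ctsg (305 CPM, against 274 and 218 CPM in the controls) lay above both controls and Prtn3 (658 CPM, against 673 and 605 CPM) between them. Ltf, the lactoferrin gene of neutrophil granules, had 217, 975, 981 and 585 CPM in conditioned medium, against 9673 and 10186 CPM in control medium, and Ly6g, a neutrophil surface antigen gene, had 2.23, 15.2, 14.1 and 11.5 CPM against 211 and 239 CPM. The exceptions were the collagenase genes Mmp8 and Mmp9 (0.20 and -0.78, not called).

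The common beta chain gene Csf2rb had 460.3 (VpR83), 1053 (VpR99), 922 (VpR126) and 723 CPM (VpR2020) in conditioned medium, against 149 and 157 CPM in control medium. The groups were separated by more than 2-fold, VpR83 being the lowest line. Csf2rb rose by 2.37 ± 0.37 on the log2 scale (edgeR adjusted p = 0.00419), and the call held under all alternatives run (adjusted p-values from 1.5e-09 to 0.0485). Csf2rb2, the interleukin 3 beta chain gene, had 291 (VpR83), 474 (VpR99), 623 (VpR126) and 439 CPM (VpR2020), against 32.9 and 34.2 CPM in the controls. Here too VpR83 was the lowest line. Csf2rb2 rose by 3.77 ± 0.36 (edgeR adjusted p = 0.00104), and was called under all alternatives run (adjusted p-values from 3.3e-27 to 0.0209).

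Neither alpha chain gene passed the test with all libraries. Csf2ra, the GM-CSF receptor alpha chain gene (chromosome 19, 61223957 to 61228429, minus strand), had 177 (VpR83), 179.7 (VpR99), 263 (VpR126) and 157 CPM (VpR2020), against 248 and 248.9 CPM in the controls. VpR126 lay above both controls and the other lines below both. Its log2 fold change was -0.35 ± 0.23 (edgeR adjusted p = 0.239), and only without VpR126 was it called lower (-0.52, adjusted p = 0.0224). Il3ra, the interleukin 3 receptor alpha chain gene (chromosome 14, 14346275 to 14356011, plus strand), had 35.4 (VpR83), 24.3 (VpR99), 48.0 (VpR126) and 40.9 CPM (VpR2020), against 25.9 and 25.7 CPM. VpR99 lay below both controls and the other lines above both. Its log2 fold change was 0.52 ± 0.28 (edgeR adjusted p = 0.165), and only without VpR99 was it called higher (0.69, adjusted p = 0.0273). The annotated antisense gene Gm48860 overlaps exons of Il3ra and has no entry in the deposited counts. Il5ra, the interleukin 5 receptor alpha chain gene, had 0.037 to 0.89 CPM in conditioned medium and 0.90 and 0.70 CPM in control medium (-1.19, edgeR adjusted p = 0.317).

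**Figure D2:**
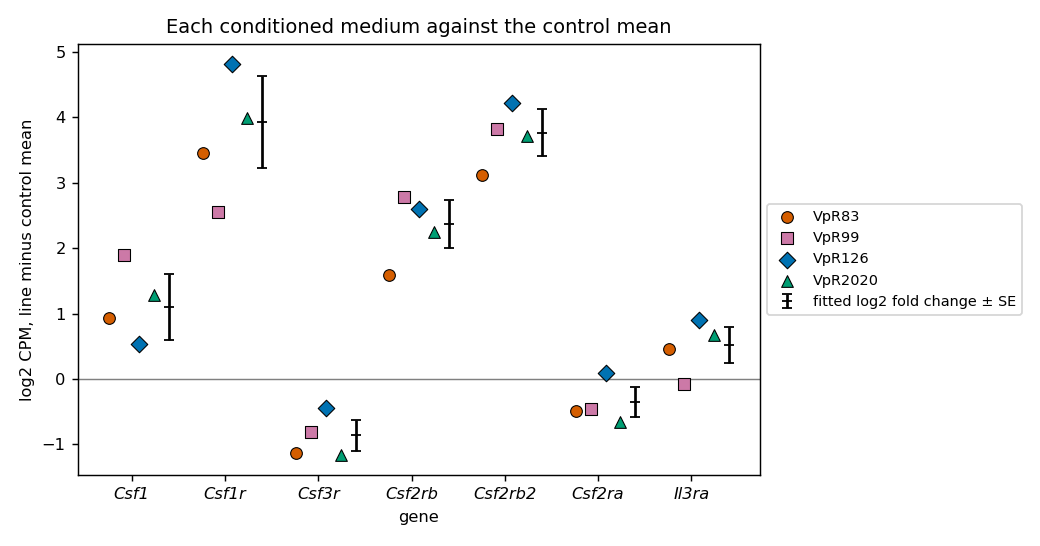
Log2 CPM of each conditioned library minus the mean log2 CPM of the controls (coloured points, 1 per line), and the fitted log2 fold change with its SE (black bars), for the 7 genes. The lines span 2.55 to 4.82 for Csf1r but -1.17 to -0.45 for Csf3r, and VpR99 is lowest for Csf1r while it is highest for Csf1 and Csf2rb.

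Ratios of 2 genes within a library do not depend on how libraries were scaled. There were 8.37, 3.61, 13.5 and 12.4 Csf1r counts per Csf3r count in VpR83, VpR99, VpR126 and VpR2020, against 0.373 and 0.328 in the controls. The mean log2 ratio was 3.08 ± 0.87 in conditioned medium and -1.52 ± 0.13 in control medium (SD, n = 4 and 2, exact two-sided permutation p = 0.133), a difference of 4.59. Csf1r thus outnumbered Csf3r in every conditioned library and the reverse held in both controls. With 4 against 2 libraries, 0.133 is the smallest p this test can give.

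The balance of the beta chains shifted towards Csf2rb2. Csf2rb had 1.58, 2.22, 1.48 and 1.65 counts per Csf2rb2 count in VpR83, VpR99, VpR126 and VpR2020, against 4.52 and 4.598 in the controls. The difference of mean log2 ratios was -1.41 (exact two-sided permutation p = 0.133, n = 4 and 2). It kept its sign and lay between -1.54 and -1.34 with any 1 library left out. Csf2ra had 0.386, 0.171, 0.285 and 0.217 counts per Csf2rb count in conditioned medium, against 1.67 and 1.58 in control medium, a difference of -2.68 in mean log2 ratio (exact two-sided permutation p = 0.133, n = 4 and 2). Csf1 had 0.0219, 0.0803, 0.00642 and 0.0194 counts per Csf1r count, against 0.202 and 0.0789 in the controls, where VpR99 overlapped control replicate 2 (difference -2.54, exact two-sided permutation p = 0.267, n = 4 and 2). Adjusted over these 4 ratios the p-values were 0.178 for the first 3 and 0.267 for the last.

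**Figure D3:**
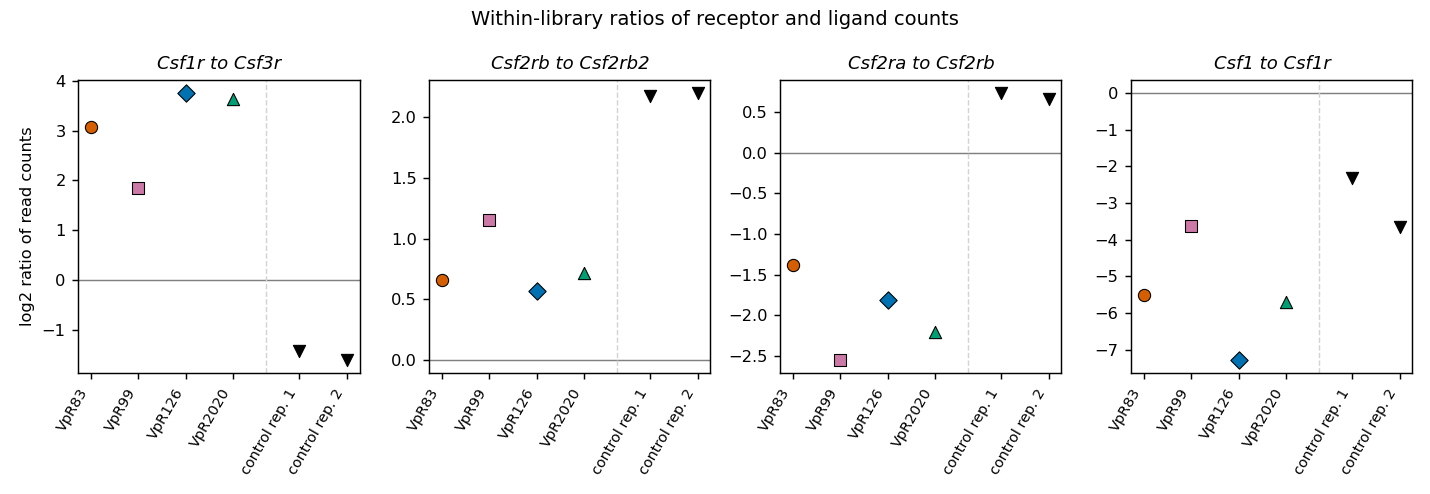
Log2 ratio of read counts of 2 genes within each library, for 4 pairs, with the conditioned libraries left and the controls right of the dashed line. The groups separate for Csf1r to Csf3r, Csf2rb to Csf2rb2 and Csf2ra to Csf2rb, while Csf1 to Csf1r overlaps between VpR99 and control replicate 2.

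Levels of different genes were set side by side as CPM per kilobase of the union of annotated exons. Csf1r averaged 442 ± 279 in conditioned medium and 29.0 ± 0.41 in control medium (SD, n = 4 and 2). In VpR126 its level of 821 ranked 37 among protein-coding genes, and in the controls it ranked 1575 and 1493. Csf3r averaged 73.1 ± 17.7 in conditioned medium and 133 ± 14.1 in control medium, and Csf2ra 67.7 ± 16.4 and 86.5 ± 0.24. Csf2rb averaged 108.5 ± 35.5 in conditioned medium and 21.02 ± 0.81 in control medium, Csf2rb2 96.4 ± 28.8 and 7.07 ± 0.19. Il3ra and Csf1 were the lower end in conditioned medium, with 12.5 ± 3.37 and 9.51 ± 3.96, and had 8.70 ± 0.05 and 4.43 ± 2.69 in control medium. Csf1r led in VpR83, VpR126 and VpR2020, and Csf3r and Csf2ra were the top pair in both controls, whichever of the exon union or the longest coding transcript gave the length. In VpR99 Csf1r led by the exon union and Csf2rb by the longest transcript. By the exon union, Csf2rb and Csf2rb2, and likewise Csf3r and Csf2ra, differed in conditioned mean by less than the SD between lines. By the longest transcript Csf2rb lay above Csf2rb2 and Csf2ra above Csf3r in all 4 lines. The ratio of Csf2rb to Csf2rb2 per kilobase was 1.13 in conditioned and 2.97 in control medium by the exon union, and 1.67 and 4.41 by the longest transcript, a length chosen after seeing the data.

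Genes around these receptors were grouped by role into 7 lists of 82 genes, of which 76 were tested. Of these 28 were called higher and 9 lower, with a median log2 fold change of 0.53. Of all tested genes 22.5% were called higher and 19.7% lower, 42.2% in either direction, with a median of -0.01. Scaling by upper quartiles or library totals moved the median of all genes to -0.22 and -0.26 and gave 21 higher and 13 lower, and 22 and 13. Leaving out control replicate 1 or 2 lowered the number called in these lists, as it did over all tested genes.

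**Figure D4:**
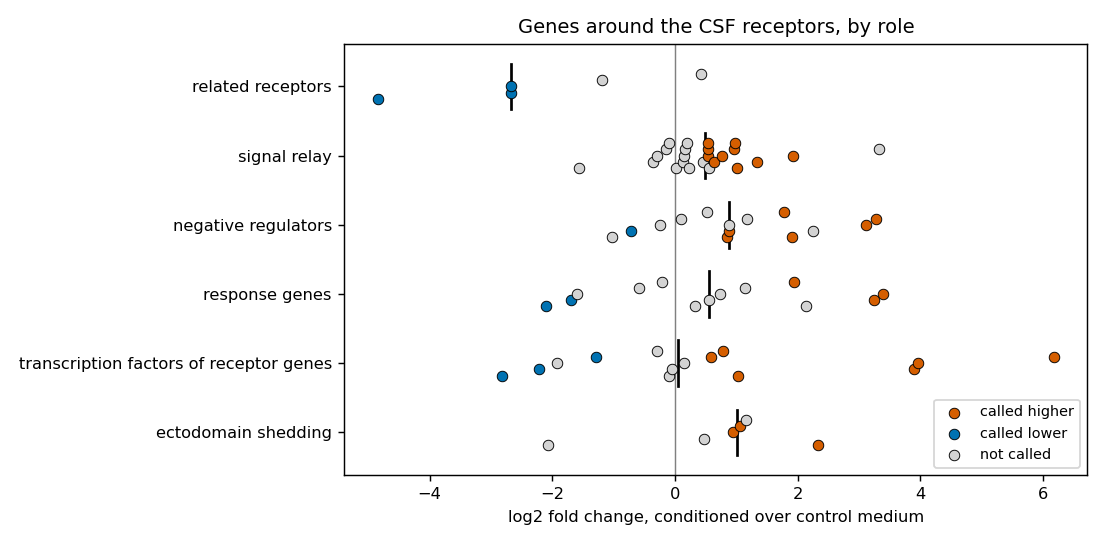
Log2 fold change, conditioned over control medium, of the tested genes of 6 lists around the receptors, 1 point per gene, coloured by call, with black bars at list medians (vertical offsets only separate points). The called related receptors lie at -4.84 to -2.67, and the called signal relay genes lie between 0.53 and 1.92.

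Of the related receptors 3 of 5 tested were called lower and 0 higher (median -2.67). Basophil and mast cell markers summed to 11.6 to 87.2 CPM in conditioned medium and 749.8 to 844 CPM in control medium. Of these, 7 of 7 were called lower, and fewer without either control. Their median log2 fold change was -3.97, and -3.92 and -3.99 without control replicate 1 and 2. Eosinophil markers summed to 27.6 to 71.6 CPM in conditioned medium and 118 to 408 CPM in control medium, with 4 of 6 called lower and 0 without control replicate 1 or VpR2020. Of 7 dendritic cell markers 3 were called lower (Cd209a, Siglech and Zbtb46) and 1 higher (Bst2). The sums were 138 to 474 CPM in conditioned medium and 161 to 169 CPM in control medium. Bst2 made up 107 to 331 CPM of the sums in conditioned medium and 58.8 and 66.5 CPM in control medium. The part of these markers in the receptor levels was not tested. Kit, the stem cell factor receptor gene and a kinase relative of Csf1r, had 6.63, 17.8, 15.97 and 5.37 CPM in conditioned medium, against 70.5 and 75.4 CPM in control medium (-2.67, edgeR adjusted p = 0.00755). It lies outside the naming rule and was added after its values were seen. Flt3, a receptor gene of early progenitors and dendritic cells, had 6.52, 2.12, 5.79 and 4.48 CPM, against 31.8 and 28.3 CPM (-2.68 ± 0.41, edgeR adjusted p = 0.00415). Epor, the erythropoietin receptor gene, had 0.07, 0.16, 4.27 and 1.88 CPM, against 41.7 and 45.0 CPM (-4.84 ± 1.28, edgeR adjusted p = 0.0245). Kit and Flt3, which belong to the same kinase family as Csf1r, were lower in all 4 conditioned libraries than in both controls. Epor was not called without control replicate 1, control replicate 2 or VpR2020 or without a low-count filter (adjusted p = 0.0955, 0.0979, 0.058 and 0.112, range 0.00292 to 0.112), and its fold change was -6.30 without VpR126. Kit was not called without control replicate 2 (adjusted p = 0.0515, range 5.86e-06 to 0.0515). Without control replicate 1 or 2, 2 and 1 of the list were called, without VpR2020 or a low-count filter 2, and without VpR126 4.

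Of 24 genes that relay the signal, among them kinases, adaptors, Stat genes and Plcg2, 10 were called higher and 0 lower (median 0.49). Gab2, an adaptor gene downstream of cytokine receptors, had 123, 97.4, 134 and 148 CPM in conditioned medium, against 34.7 and 31.7 CPM in control medium (1.92 ± 0.21, edgeR adjusted p = 0.00139). Its relative Gab3 had 13.5, 7.74, 11.4 and 18.1 CPM, against 4.599 and 5.404 CPM (1.34 ± 0.37, edgeR adjusted p = 0.0276). Jak2, Stat5a and Stat5b, the kinase and transcription factor genes of beta chain signalling, had log2 fold changes of 0.17, -0.37 and -0.30 and were not called (edgeR adjusted p = 0.597, 0.0630 and 0.0882). Under upper-quartile and library-total scaling Stat5a (-0.57 and -0.61, adjusted p = 0.0145 and 0.0172) and Stat5b (-0.51 and -0.54, adjusted p = 0.0160 and 0.0151) were called lower, and Jak2 turned its sign (-0.040 and -0.077, not called). Gab3 was not called without control replicate 1, control replicate 2 or VpR83 or by limma-voom (adjusted p = 0.169, 0.116, 0.0568 and 0.0801, range 0.00342 to 0.169). Under upper-quartile or library-total scaling 5 genes of the list were higher and 3 lower, and without control replicate 1 or 2, or VpR83, 2, 2 and 6 were higher.

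Of 14 negative regulators 6 were called higher and 1 lower (median 0.88). Cbl, the ubiquitin ligase gene whose product sends activated CSF1R to lysosomes, had 148, 173, 228 and 159.5 CPM in conditioned medium, against 20.4 and 16.1 CPM in control medium (3.28 ± 0.26, edgeR adjusted p = 0.000649). Spred1, a gene of a Ras pathway inhibitor, had 146, 136, 157 and 95.8 CPM, against 14.8 and 16.2 CPM (3.11 ± 0.25, edgeR adjusted p = 0.000698). Ptpn2, a phosphatase gene acting on JAK kinases, had 27.0, 36.6, 28.5 and 26.7 CPM, against 51.3 and 46.6 CPM (-0.72 ± 0.18, edgeR adjusted p = 0.0183). The call of Ptpn2 was lost without control replicate 1 or 2 (adjusted p = 0.128 and 0.091, range 0.00437 to 0.128), where 3 genes of the list were called in each case, all higher. Socs2 and Cish, feedback genes induced by STAT5, had log2 fold changes of 2.24 and 0.88 and were not called (edgeR adjusted p = 0.107 and 0.254), although DESeq2 called Socs2 higher (adjusted p = 0.0207). Socs2 had 3.22, 7.06, 9.55 and 32.1 CPM, against 3.50 and 1.93 CPM, and its log2 fold change was 1.29 without VpR2020, the highest line.

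Of 13 known response genes of these receptors 3 were called higher and 2 lower (median 0.55). These counts are near the shares of all tested genes, 22.5% called higher and 19.7% lower. Ccnd1, the cyclin D1 gene, had 177, 174, 43.2 and 57.5 CPM in conditioned medium, against 9.36 and 12.2 CPM in control medium (3.39 ± 0.75, edgeR adjusted p = 0.0133), whereas Ccnd3, the cyclin D3 gene, had 77.9, 199.8, 104 and 64.6 CPM, against 453 and 503 CPM (-2.10 ± 0.43, edgeR adjusted p = 0.0109). Plau, the urokinase gene, had 269, 347, 189.9 and 159 CPM, against 17.5 and 33.8 CPM (3.24 ± 0.47, edgeR adjusted p = 0.0033). Pim2, a survival kinase gene, had 4.03, 5.97, 9.29 and 3.43 CPM, against 16.5 and 20.5 CPM (-1.70 ± 0.40, edgeR adjusted p = 0.017). Without control replicate 1 or 2 the calls of Ccnd1 (adjusted p = 0.105 and 0.085, range 9.59e-07 to 0.105), Ccnd3 (0.0576 and 0.0707, range 9.38e-05 to 0.0707) and Pim2 (0.0731 and 0.114, range 0.000729 to 0.114) were lost, and so was that of Ccnd1 without a low-count filter (0.0545). The list then held 3 and 2 higher and 0 lower genes without these controls.

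Of 14 transcription factors that act on the receptor genes 6 were called higher and 3 lower (median 0.05). Maf, a factor gene of macrophages, had 609, 406, 729 and 894 CPM in conditioned medium, against 9.998 and 8.27 CPM in control medium (6.17 ± 0.44, edgeR adjusted p = 0.000502). Cebpe, a factor gene of late granulocyte maturation, had 9.96, 36.9, 19.7 and 14.8 CPM, against 134 and 153 CPM (-2.81 ± 0.47, edgeR adjusted p = 0.00541). Klf4 had 24.5, 39.6, 19.6 and 18.9 CPM, against 177 and 60.3 CPM (-2.21 ± 0.47, edgeR adjusted p = 0.0116), and without control replicate 1 its fold change was -1.23 and not called (adjusted p = 0.106, range 0.000129 to 0.106). Spi1, the PU.1 gene, had a log2 fold change of 0.14 and was not called (edgeR adjusted p = 0.579), and its sign turned under upper-quartile and library-total scaling (-0.069 and -0.11). Without control replicate 1 or 2, 3 genes were called higher and 2 lower, and 4 and 4 under upper-quartile scaling, and 5 and 4 with library totals. The median of the list was 0.63 without control replicate 1, -0.04 without VpR126, and -0.16 and -0.20 under these scalings.

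Of the 6 genes of ectodomain shedding 3 were called higher and 0 lower (median 1.003). Adam17, the protease gene whose product cuts CSF1R and membrane-bound CSF1 from the cell surface, had 324, 247, 451 and 295 CPM in conditioned medium, against 66.1 and 64.2 CPM in control medium (2.34 ± 0.28, edgeR adjusted p = 0.00181). Furin, the gene of a proprotein convertase that activates ADAM proteases, had 254, 236, 214 and 202 CPM, against 106 and 110.0 CPM (1.07 ± 0.16, edgeR adjusted p = 0.00335). Without control replicate 2, 2 genes of the list were called, and without VpR99 4 were called higher and 1 lower.

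The genes whose pattern over the 6 libraries was most like that of a receptor were sought among 9879 protein-coding genes, as the smallest root mean square (RMS) difference in log2 CPM after centring each gene on its own mean. For Csf1r these included P2rx4 and P2rx7 (RMS 0.16 and 0.18). P2rx4, an ATP-gated channel gene, had 167, 124, 484 and 262 CPM in conditioned medium, against 18.1 and 19.7 CPM in control medium, in the same order of lines as Csf1r. For Csf3r they were Cyb561a3, Lig4 and Trim39 (0.09, 0.10 and 0.11), for Csf2rb Ccl9, Phlda3 and Tfec (0.22, 0.22 and 0.24), and for Csf2rb2 Rgl1, Mfge8 and Cbl (0.24, 0.28 and 0.30). Ccl9, a chemokine gene, had 524, 919, 707 and 519 CPM in conditioned medium, against 126 and 117 CPM in control medium. Csf2ra was closest to Crtc2, Hcls1 and Nxf1 (0.06 each), Il3ra to Zfp787, Rps6kc1 and Apba1 (0.07, 0.07 and 0.08), and Csf1 to Klf9, mt-Co1 and Hspa5 (0.33, 0.34 and 0.37), the last being the loosest match. None of these nearest genes was another of the 7.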

How the data were processed

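RNA-seq libraries of mouse bone marrow in conditioned medium (4) and control medium (2) were analysed. The authors deposited whole-number counts of reads for each Ensembl gene, with no normalization. Trimmomatic 0.38, STAR 2.5.2b and the build GRCm38 come from the submitters' processing notes, and the stranded TruSeq kit from the labels' protocols. Counting tool, strand setting and annotation release: not given in the sources used here. Symbols and exons came from GENCODE M21 (GRCm38), which matched 45143 of 45706 identifiers.

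The fit used edgeR 4.0.16 under R 4.3.3: filterByExpr (15141 genes kept), TMM, a robust two-sided quasi-likelihood test of group with no covariate, Benjamini-Hochberg over all genes tested, called below 0.05. The SE is the absolute log2 fold change over the root of the F statistic. No label ties libraries to separate animals or cultures. The p-values therefore reflect the spread among these 6 libraries. In the 4 conditioned libraries this spread includes any difference between lines, and the rest may be technical. No pair of libraries agreed within sampling noise (lowest chi-square per degree of freedom 29.8, the controls). Ratios were compared by exact permutation over libraries. Alternatives were other scalings, no filter, DESeq2 1.42.0, limma-voom 3.58.1, a non-robust fit, VpR99 thinned to 28051295 counts, and leaving out each library. The genes and lists were chosen with earlier results of these data known. Genes named in a list were its 2 largest called rises and falls, the ligand genes, and the 3 genes nearest in pattern to each of the 7. Jak2, Stat5a, Stat5b, Socs2, Cish, Spi1, Il5ra, Kit and the marker genes named were added after their values were seen. Intervals from counts of 0 cover counting error only. The listed symbol Azu1 matched no gene. Some genes that the naming rule selects are not reported here.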

Additional observations from a re-analysis of the deposited data

How the results depend on the processing

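All 7 genes kept their direction under every alternative run. Under the other scalings, DESeq2, limma-voom, the non-robust fit, thinning of VpR99 and no low-count filter, no gene of the 7 crossed the threshold, and 4 were called each time. Over the libraries left out in turn, log2 fold changes lay between 0.61 and 1.91 (Csf1), 3.46 and 4.202 (Csf1r), -0.52 and -0.25 (Csf2ra), 2.20 and 2.56 (Csf2rb), 3.59 and 3.94 (Csf2rb2), -1.02 and -0.74 (Csf3r) and 0.39 and 0.69 (Il3ra). Between 2 and 5 of the 7 genes, 15 and 41 pathway genes and 2201 and 7031 of all genes were then called, the lowest numbers without a control, where a single control is taken to spread as the other group does. Ratio differences lay between 4.37 and 5.002 (Csf1r to Csf3r), -1.54 and -1.34 (Csf2rb to Csf2rb2), -2.89 and -2.50 (Csf2ra to Csf2rb) and -3.22 and -1.87 (Csf1 to Csf1r). The share of calls that were higher was 53.3% with TMM, 40.0% by upper quartiles and 38.6% by totals. No paired analysis was possible because the conditioned libraries carry line names and no replicate numbers. The length used for genes moved Csf2rb over Csf2rb2 per kilobase to 1.67 in conditioned medium, against 1.13 by exon union, an alternative chosen after seeing the data.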
